A study of Mus musculus with 2 samples.

Results

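The 10 genes described here are Postn, Cthrc1, Fap, Fn1, Tnc, Cilp, Sfrp1, Lox, Meox1 and Sparc, listed for activated cardiac fibroblasts and the matrix around them. Which cells their RNA came from in these sections was not tested. The genes were taken by symbol from the 19465 genes in the feature lists of both sections. They were chosen with earlier results of these data known. Levels come from Visium CytAssist, a spatial assay in which probes bound to RNA in a fixed, paraffin-embedded section are counted in spots as unique molecular identifiers (UMIs), and each spot covers a patch of tissue with parts of several cells. The assay covered 2 mouse hearts, 1 section of 5 μm from each. The control heart carried α-MHC-MerCreMer+/− alone, and the TOP2B transgenic heart carried α-MHC-MerCreMer+/− with hTOP2B LSL/−, a human TOP2B cDNA behind a loxP-flanked stop cassette. The α-MHC promoter places the tamoxifen-dependent Cre in cardiomyocytes, so the transgene was not built to switch on in fibroblasts. Both mice received tamoxifen at 80 mg/kg, and both therefore carried an active Cre. The methods give 6 weeks as the age at injection in the acute model, and the time from injection to harvest of these sections is not given in the sources used here.

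In a resting heart, fibroblasts keep a thin network of collagen between the cardiomyocytes. After injury or overload they divide, change state and secrete a new matrix of fibrillar collagen and fibronectin, together with matricellular proteins that tune adhesion and signalling without bearing load, and with enzymes that cross-link the fibres. Type I collagen, whose α1 chain is encoded by Col1a1, is the main fibre of the cardiac scar and serves here as the reference for where matrix genes were read.

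The control section held 1256 spots with 14376300 UMIs and the transgenic section 924 spots with 12953389 UMIs, with medians of 11335.5 and 14531 UMIs per spot. Values are given as UMIs summed over a section and as CPM, the UMIs of a gene scaled to a section total of 1000000. With 1 section per condition there is no replicate and no test, and differences between the hearts cannot be told apart from differences between the conditions. All intervals are 95% intervals that cover counting error only. Mouse Top2b stood at 106 CPM (101 to 112) in the control and 102 CPM (96.3 to 107) in the transgenic section, and whether its probes also bind the human cDNA was not tested, so the label of the transgenic section was not checked by it. Red blood cell markers made up 0.215% of the UMIs of the control section and 2.04% of those of the transgenic section. These UMIs were concentrated: 54 transgenic spots and 8 control spots had over 10% of their UMIs from red blood cell markers, and results over spots include them unless stated otherwise.

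Of the 10 genes, 9 were higher in the transgenic section, and Fap was the exception. Among the 15236 genes with at least 20 UMIs over both sections, 63.2% were higher in the transgenic section. The interval of each of the 9 lay above 0 on the log2 scale. How many of all genes had such an interval was not counted. A ratio of at least 2-fold was reached by 9 of the 10 and by 13.7% of all genes compared, a ratio of at least 4-fold by 8 and by 3.49%, and a ratio of at least 8-fold by 4 and by 1.12%. None of the 10 was lower by 2-fold or more, which held for 5.61% of all genes. The median log2 ratio was 2.55 over the 10 genes and 0.20 over all genes compared. Together the 10 genes took 0.0473% of control UMIs and 0.309% of transgenic UMIs, which is 2.71 on the log2 scale (2.67 to 2.75). Sparc alone supplied 76.6% of that sum in the control and 60.4% in the transgenic section, and the log2 ratio of the other 9 together was 3.47 (3.39 to 3.54). A higher sum per section can come from more cells that express a gene or from more RNA in each, and here these cannot be told apart.

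**Figure D1:**
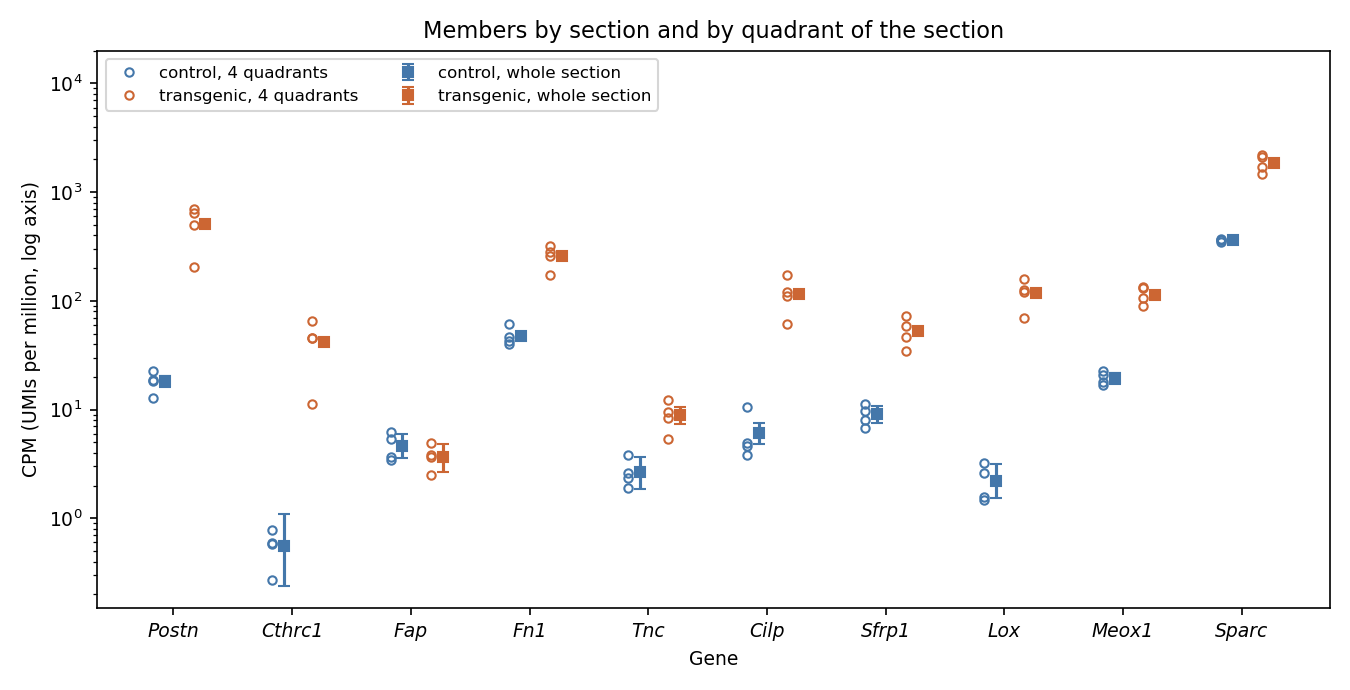
CPM (log axis) of the 10 genes in the control and the TOP2B transgenic section, as filled squares with 95% counting intervals for the whole section and as open circles for its 4 quadrants. For 9 genes every transgenic quadrant lies above every control quadrant, and for Fap the quadrants of both sections overlap. Quadrants are parts of a section and not replicates, and the share of all genes with quadrants apart was not counted.

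The highest ratios were those of Cthrc1, Lox, Postn and Cilp. Postn encodes periostin, a secreted protein that binds collagen and integrins and is the usual mark of the activated fibroblast. Its UMIs numbered 261 in the control heart and 6590 in the transgenic heart, that is 18.2 CPM (16.0 to 20.5) against 509 CPM (497 to 521). This was a 28.0-fold ratio (24.8 to 31.8). At least 1 Postn UMI was seen in 17.7% of control spots and in 89.1% of transgenic spots, and no control spot held more than 4 while 1 transgenic spot held 65. When the control section was divided at its median row and column into 4 quadrants, Postn ranged from 12.7 to 22.6 CPM between them. In the transgenic section the quadrants read 699, 647, 206 and 501 CPM, so the lowest transgenic quadrant was still far above the highest control quadrant, and the quadrants of the transgenic heart differed more from each other than those of the control.

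Cthrc1, a secreted protein that marks the fibroblasts that make most collagen after injury, was close to absent in the control, with 8 UMIs in 8 spots, or 0.556 CPM (0.240 to 1.10). The transgenic section held 538 UMIs, or 41.5 CPM (38.1 to 45.2). The ratio was 74.6-fold, the highest of the 10, with a wide interval of 37.6 to 174 because the control count was so small. The share of spots with a UMI went from 0.637% to 32.3%. Cthrc1 was also the most uneven of the high genes between quadrants of the transgenic heart, from 11.2 to 65.1 CPM.

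Cilp, a matrix protein best known from cartilage that is also secreted by cardiac fibroblasts, had 87 control UMIs and 1514 transgenic UMIs, 6.05 CPM (4.85 to 7.46) against 117 CPM (111 to 123). The ratio was 19.3-fold (15.6 to 24.3). Its spots with a UMI went from 5.81% to 60.6%, and 1 transgenic spot held 25 UMIs.

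Tnc, the hexameric glycoprotein tenascin C of developing and healing tissue, had the lowest ratio of the genes that rose. It had 38 control UMIs and 115 transgenic UMIs, 2.64 CPM (1.87 to 3.63) against 8.88 CPM (7.33 to 10.7), a ratio of 3.36-fold (2.31 to 4.98). Only 10.1% of transgenic spots held a Tnc UMI, against 2.71% of control spots. In the 50% of each section's spots richest in cardiomyocyte markers, its log2 ratio was 0.62 rather than 1.75.

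Sparc, a collagen-binding glycoprotein that takes part in assembling collagen fibres, was the one gene of the 10 already read almost everywhere in the control heart. It had 5207 UMIs there and 24177 in the transgenic heart, 362 CPM (352 to 372) against 1866 CPM (1843 to 1890). The ratio was 5.15-fold (5.00 to 5.31). Because 96.0% of control spots and 97.6% of transgenic spots held a Sparc UMI, its change was one of level per spot and hardly one of spots with a UMI. The 4 quadrants spanned 351 to 369 CPM in the control and 1485 to 2204 CPM in the transgenic section.

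RefSeq start regions (GRCm38.p6, 250 bases before to 50 after a start) matched 4 of the 10 genes, Postn, Tnc, Cilp and Sparc; Cthrc1, Fap, Fn1, Sfrp1, Lox and Meox1 had no entry in the table used. The 100 bases before the start are shown for one start each of the first 3, because they share an element at nearly the same place, and for Sparc, which lacks it. Capitals mark a match to TATANAA, letters of the TATA box kind, searched on both strands. This motif was picked after the sequences had been read. The match began 28 bases before the Postn start, 29 before the Tnc start and 30 before the Cilp start.
Postn, chr3:54361007-54361106, plus strand: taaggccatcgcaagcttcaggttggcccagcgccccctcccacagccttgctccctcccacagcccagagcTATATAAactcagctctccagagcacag
Tnc, chr4:64046937-64047036, minus strand: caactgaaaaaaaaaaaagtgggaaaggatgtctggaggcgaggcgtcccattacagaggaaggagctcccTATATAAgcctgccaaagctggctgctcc
Cilp, chr9:65265080-65265179, plus strand: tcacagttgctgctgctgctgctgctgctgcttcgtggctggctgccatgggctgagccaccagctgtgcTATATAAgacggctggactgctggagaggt
Sparc, chr11:55420081-55420180, minus strand: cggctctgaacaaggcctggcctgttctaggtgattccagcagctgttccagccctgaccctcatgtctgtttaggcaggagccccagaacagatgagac

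Among all 32544 start regions of 300 bases, 11.3% held TATANAA anywhere, on either strand. How many held it 28 to 30 bases before the start was not counted, so the shared place has no background. The Postn region shown held another match 212 bases before the start. Postn and Tnc each have another start in the table, and neither had the match in the 100 bases before it. The AP-1 letters TGANTCA (7.79% of all start regions) and the TEAD letters CATTCC (14.6%) were found in none of the 4 genes' regions. A match is a description of the letters, and nothing was read from a missing one.

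Fn1 encodes fibronectin, the fibre on which fibroblasts lay down and organise collagen. The control section held 686 UMIs and the transgenic section 3322, or 47.7 CPM (44.2 to 51.4) against 256 CPM (248 to 265), a ratio of 5.37-fold (4.95 to 5.84). Fn1 was found in 39.1% of control spots and 84.2% of transgenic spots. Its quadrants ran from 40.0 to 61.2 CPM in the control and from 173 to 319 CPM in the transgenic section.

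Lox encodes lysyl oxidase, the copper enzyme that cross-links collagen and elastin. Its ratio came next after that of Cthrc1. The control heart gave 32 UMIs, each in a spot of its own, and the transgenic heart 1540, or 2.23 CPM (1.52 to 3.14) against 119 CPM (113 to 125). This was 53.4-fold (37.7 to 78.4), and the share of spots with a UMI went from 2.55% to 66.8%. The fall of Lox between quadrants of the transgenic heart, from 159 to 69.7 CPM, was small beside its distance from the control quadrants, which read 1.48 to 3.23 CPM.

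Sfrp1, a secreted protein that binds Wnt ligands, and Meox1, a homeobox transcription factor of activated fibroblasts, changed by nearly the same factor. Sfrp1 went from 130 to 685 UMIs, 9.04 CPM (7.56 to 10.7) against 52.9 CPM (49.0 to 57.0), a ratio of 5.85-fold (4.84 to 7.11). Meox1 went from 280 to 1478 UMIs, 19.5 CPM (17.3 to 21.9) against 114 CPM (108 to 120), a ratio of 5.86-fold (5.15 to 6.68). Sfrp1 was found in 9.55% of control and 46.6% of transgenic spots, and Meox1 in 20.4% and 71.2%. Sparc aside, Meox1 was the most even of the 9 genes that rose, at 90.2 to 135 CPM in the 4 transgenic quadrants.

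Fap, a serine protease on the surface of activated fibroblasts, did not follow the others. The control heart gave 67 UMIs, or 4.66 CPM (3.61 to 5.92), and the transgenic heart 47, or 3.63 CPM (2.67 to 4.82). The log2 ratio was −0.36 with an interval of −0.93 to 0.20, which includes 0. As far as counting error of the CPM goes, this interval shuts out a 2-fold difference in either direction. With TMM and DESeq2 size factors the log2 ratio was −0.52 and −0.51. No interval was read there, so a 2-fold fall is not shut out under those scalings. Whether so few Fap UMIs stand above the background of the assay was not tested. A UMI was seen in 5.18% of control spots and in 4.76% of transgenic spots, never more than 2 in a spot. The quadrants overlapped, with 3.46 to 6.22 CPM in the control and 2.49 to 4.93 CPM in the transgenic section. Its relative Dpp4, a protease of the same family, read 57 and 51 UMIs, a log2 ratio of −0.01 (−0.58 to 0.56).

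The transgenic spots were deeper, so each spot was also thinned to 8134 UMIs, which left 1116 control spots and 846 transgenic spots and dropped 140 and 78. The share with a Postn UMI was then 12.9% against 85.6%, with a Cthrc1 UMI 0.538% against 23.6%, and with a Lox UMI 2.06% against 53.1%. Depth therefore moved the shares but kept the order for these 3 genes. The Fap shares were 4.57% and 2.96%.

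The genes were also read together, over all spots. The median spot held UMIs of 2 of the 10 genes in the control and of 6 in the transgenic section. At least 5 were present in 10 control spots (0.796%) and in 689 transgenic spots (74.6%), and after thinning in 0.179% and 59.3%. At least 7 were present in 1 control spot and in 345 transgenic spots, and all 10 in 2 transgenic spots. A spot is not a cell, and these counts rise with each gene's own share of spots. Whether the genes shared spots more often than those shares alone would give was not tested.

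Moran's I, deposited by the authors for each gene and read here as given for the whole section, is near 0 when a gene's spots are scattered and rises when neighbouring spots have like levels. In the control section none of the 10 genes reached 0.1, as did 0.604% of all genes, and the highest was Sparc at 0.0623. In the transgenic section 8 of 10 reached 0.1, as did 9.64% of all genes. Sparc stood at 0.603, Postn at 0.574, Cilp at 0.395, Cthrc1 at 0.375, Fn1 at 0.337, Lox at 0.331, Sfrp1 at 0.187 and Meox1 at 0.182. Tnc (0.0444) and Fap (0.00945), the genes with the fewest UMIs, stayed under 0.1. Genes with few UMIs give low values of this index, and control and transgenic values were read at different levels.

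**Figure D2:**
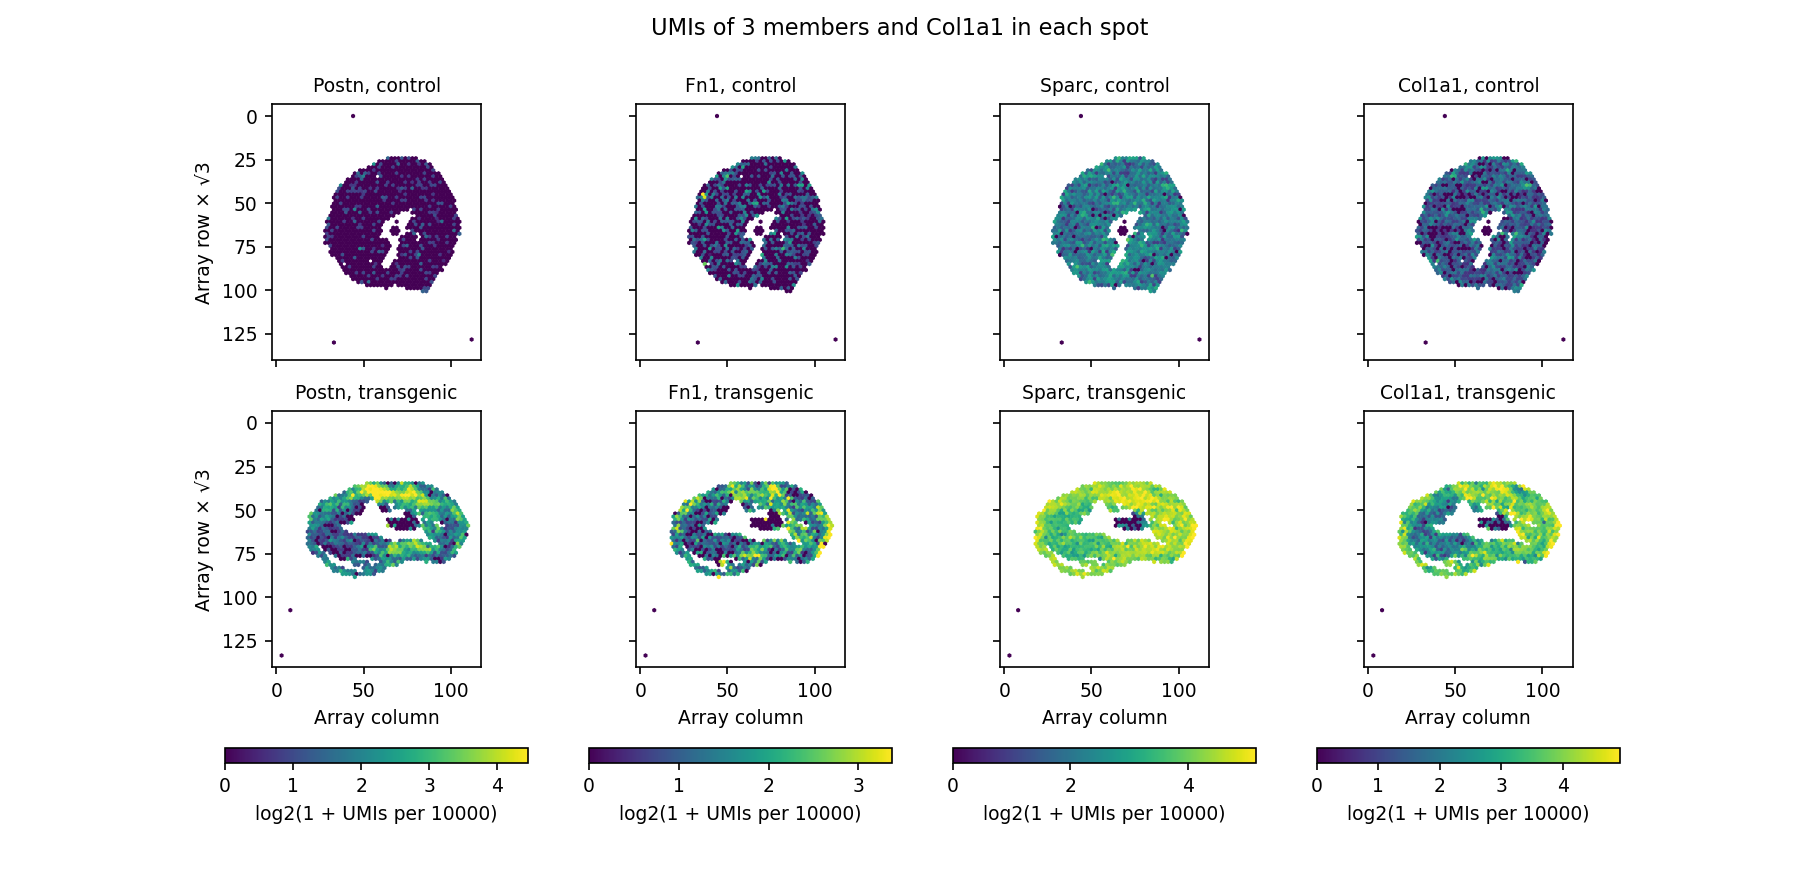
Each hexagon is a spot at its place on the capture array (array column against array row × √3), coloured by log2(1 + UMIs per 10000) of Postn, Fn1, Sparc and Col1a1 in the control (top) and transgenic (bottom) section, with one colour scale per gene, ending at the 99th percentile. By eye the high spots of the transgenic section form bands, which were not measured. Each scale spans both sections, so a pattern at the lower control levels may not show on it. Spots apart from the outline are ones the deposited file calls tissue.

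Col1a1 itself had 2474 control UMIs and 14264 transgenic UMIs, 172 against 1101 CPM, which is 2.68 on the log2 scale (2.62 to 2.74). Measured against it, the 10 genes fell into groups. Per 100 Col1a1 UMIs there were 10.5 Postn UMIs in the control and 46.2 in the transgenic section, and the log2 ratio relative to Col1a1 was 3.54 for Cthrc1, 3.06 for Lox, 2.13 for Postn and 1.59 for Cilp. Meox1 (−0.13), Sfrp1 (−0.13), Fn1 (−0.25) and Sparc (−0.31) kept close to the collagen gene. Tnc (−0.93) and Fap (−3.04) were lower relative to it. Per 100 UMIs of Pdgfra, a receptor of resting and activated fibroblasts alike, Postn went from 106 to 1321 and Fap from 27.1 to 9.42.

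Within the transgenic section, the level of a gene in a spot was correlated with that of Col1a1 (Pearson r of log2(1 + UMIs per 10000) over 921 spots with at least 1000 UMIs). The spots share 1 library and differ in depth, so r is a description and has no p. It was 0.68 for Sparc, 0.56 for Postn, 0.55 for Fn1, 0.51 for Cilp, 0.51 for Lox, 0.41 for Sfrp1, 0.40 for Cthrc1, 0.35 for Meox1, 0.20 for Tnc and 0.01 for Fap. An r of 0.2 or more was found for 9 of the 10 genes and 5.78% of all genes, and an r of 0.5 or more for 5 of the 10 and 0.414% of all. Since r grows with the number of UMIs, the 5192 genes with at least 400 transgenic UMIs were also read. Of these 6.11% reached 0.3, as did 8 of the 8 genes of the list with that many UMIs. This filter left out Tnc and Fap, the genes with the lowest r. Postn, Cthrc1, Cilp, Sfrp1, Lox and Meox1 had under 400 control UMIs and passed only through the transgenic section. The 8 of 8 therefore follows in part from the filter and is no check of the correlations.

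In the control section the same correlations ran from −0.02 to 0.13. When the UMIs of each transgenic gene and of Col1a1 were thinned to their control totals, r fell to 0.42 for Sparc, 0.26 for Fn1, 0.15 for Postn, 0.15 for Cilp, 0.13 for Lox, 0.12 for Meox1 and 0.12 for Sfrp1. The control values of these genes were 0.13, 0.06, 0.09, 0.12, 0.03, 0.00 and 0.07. For Cthrc1 and Tnc, on 9 and 30 UMIs after thinning, r was 0.07 and 0.10, against 0.03 for each in the control. At near equal section totals the values were farthest apart for Sparc and Fn1. They were close for Cilp, Cthrc1, Sfrp1 and Postn, and the random thinning was drawn only once. The totals lay over 921 transgenic and 1249 control spots, so the UMIs per spot stayed higher in the transgenic section.

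Spots of each section were then ranked by Col1a1 and cut into 4 groups of equal size. From the lowest to the highest group of the transgenic section Postn read 166, 403, 572 and 848 CPM, a 5.10-fold span (4.63 to 5.63). Cthrc1 had the steepest span, from 7.20 to 82.4 CPM or 11.4-fold (7.34 to 18.8), and Tnc spanned 8.92-fold (3.87 to 25.2) on few UMIs. Cilp spanned 6.75-fold, Sfrp1 5.32-fold, Lox 5.09-fold and Fn1 4.23-fold. Meox1 (2.38-fold) and Sparc (2.13-fold) were the flattest of the genes that followed Col1a1, and for Fap, at 1.21-fold (0.56 to 2.70), the interval included 1. These groups include the spots rich in red blood cell markers. Without those spots the span was 4.82-fold for Postn, 11.1-fold for Cthrc1, 7.83-fold for Tnc and 2.03-fold for Sparc, and 1.26-fold (0.58 to 2.82) for Fap.

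For 8 of the 10 genes, all but Tnc and Fap, the lowest Col1a1 group of the transgenic heart was above the highest group of the control. The share of all genes with groups apart in this way was not counted, and a gene much higher in the whole transgenic section would tend to be among them. Postn read 166 CPM in the one and 24.7 CPM in the other. For Sfrp1 the values were close, 15.8 CPM (11.5 to 21.0) and 13.9 CPM (10.3 to 18.5), with intervals that overlap, and for the other 7 genes the intervals were apart. Within the control heart the span over the groups was 1.69-fold (1.19 to 2.43) for Postn, 2.69-fold (1.34 to 5.77) for Cilp, 1.91-fold (1.17 to 3.19) for Sfrp1 and 1.17-fold (1.08 to 1.27) for Sparc. The intervals of the other 6 genes included 1.

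**Figure D3:**
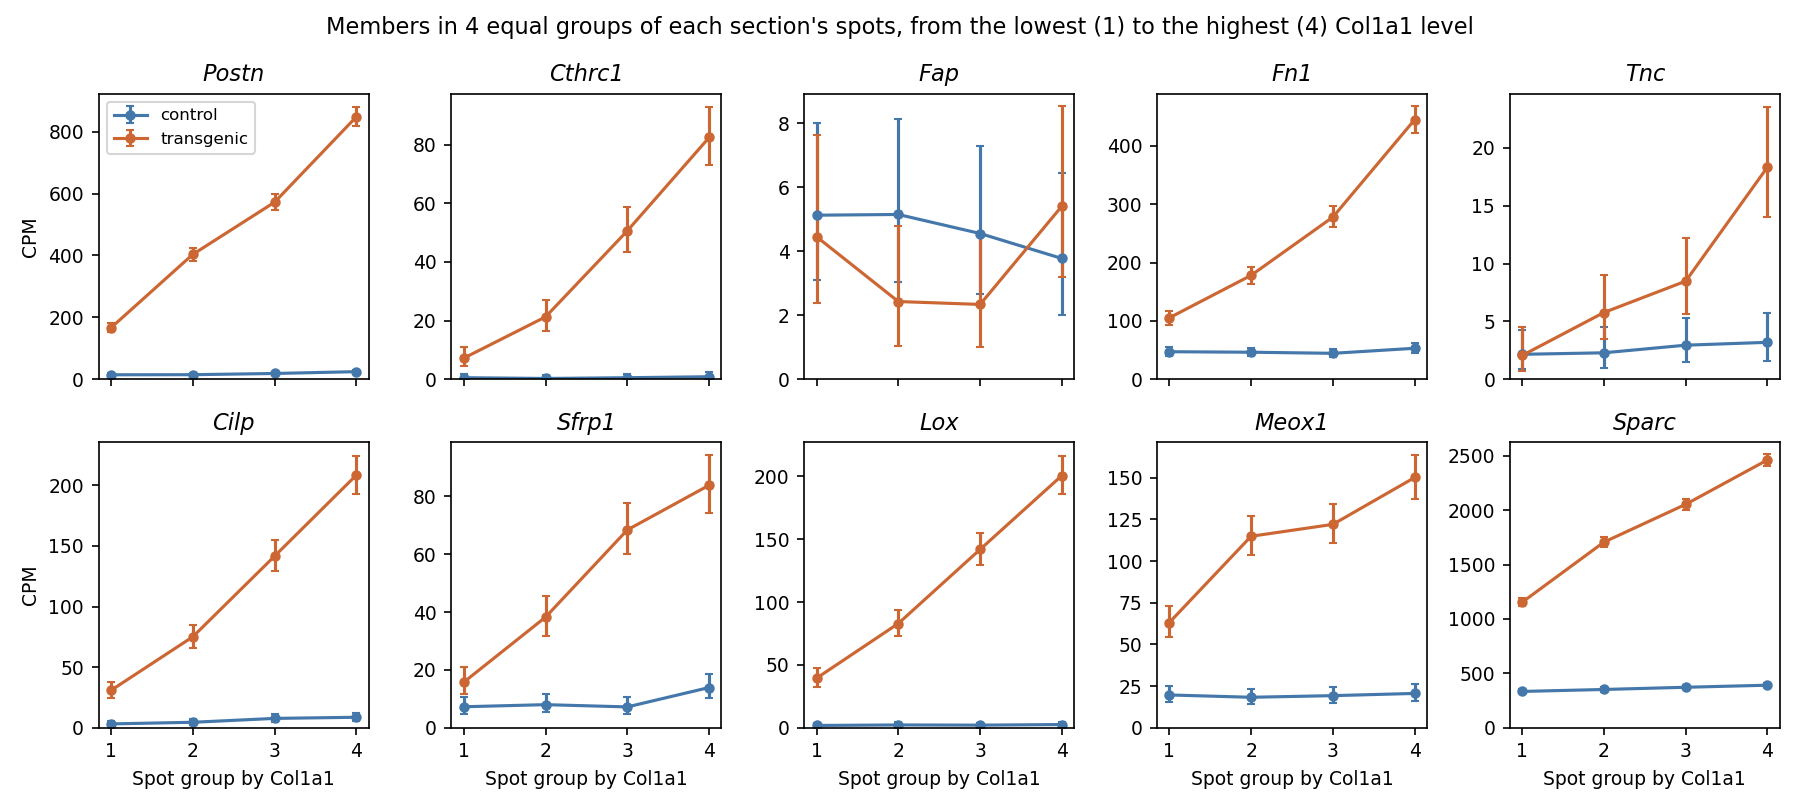
CPM of each of the 10 genes in 4 equal groups of each section's spots ranked by Col1a1, from lowest (1) to highest (4), with 95% counting intervals; each panel has its own axis, starting at 0. The transgenic line climbs in 9 panels, for Postn from 166 to 848 CPM, and the Fap panel shows intervals of both sections that overlap. The share of all genes with a climbing line was not counted.

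The level by distance from the tissue edge differed between genes. Spots of the transgenic section were sorted by distance from the tissue edge, the edge being spots with under 6 neighbours, which includes the rim of the cavities. From the edge inwards Postn read 371, 498, 642 and 557 CPM, the last at 3 or more steps in, so its highest level lay 2 steps from the edge. The interval for the last over the first was 1.39 to 1.62. Cthrc1 had the same shape, with 28.8, 39.8, 54.3 and 46.4 CPM, 1.61-fold from first to last (1.22 to 2.12). Fn1 ran the other way, from 282 CPM at the edge to 216 CPM inside, a 1.30-fold ratio of edge over inside (1.17 to 1.45). Sfrp1 was 1.39-fold (1.11 to 1.77) higher at the edge than inside, and Col1a1 1.41-fold. Sparc read 1879, 1887, 1914.5 and 1755 CPM from the edge inwards. Only its last group was thus below the edge, with a ratio of edge over inside of 1.07 (1.03 to 1.11). For Cilp, Lox, Meox1, Tnc and Fap the interval included 1. The share of all genes that differed between edge and inside of the transgenic section was not counted. Without the spots rich in red blood cell markers the Postn ratio was 1.48-fold and that of Fn1 1.35-fold.

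In the control heart only Sfrp1 and Sparc of the 10 differed between edge and inside beyond counting error, and the share of all genes that did so was not counted. Sfrp1 read 18.9 CPM at the edge and 6.56 CPM inside, 2.88-fold (1.83 to 4.49), and Sparc 1.22-fold (1.13 to 1.32). The higher edge level of Sfrp1 was thus present in both hearts, and the higher inside level of Postn was not seen in the control, where the counts were low.

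The spots rich in red blood cell markers had a strong hold on other spot correlations. In the 54 such transgenic spots, which held 2.28% of the UMIs of the section, Sparc read 928 CPM and Postn 186 CPM. Red blood cell markers made up 54.1% of the UMIs of these spots, which lowers the CPM of every other gene there. These CPM values therefore do not show that matrix RNA was scarce in them. The part of this dilution in the correlations that follow was not tested. With them, Sparc correlated with summed cardiomyocyte markers at r = 0.51 over 921 spots; over the 868 spots without them r was −0.66. Postn moved in the same way from 0.07 to −0.53, Fn1 from 0.06 to −0.52 and Cilp from 0.01 to −0.50. Without these spots the correlations with Col1a1 barely moved, to 0.54 for Postn, 0.53 for Fn1 and 0.68 for Sparc, with a median over the 10 genes of 0.45 in place of 0.46. With red blood cell markers taken out of the spot totals instead, they were lower. Postn then stood at 0.49, Fn1 at 0.49 and Sparc at 0.55, with a median of 0.42. The correlations with each other and with markers of other cells are therefore given over the 868 spots. Values over the 921 spots stand beside those with summed markers, Nppa and Myh7, except for valve and cartilage-like markers.

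**Figure D4:**
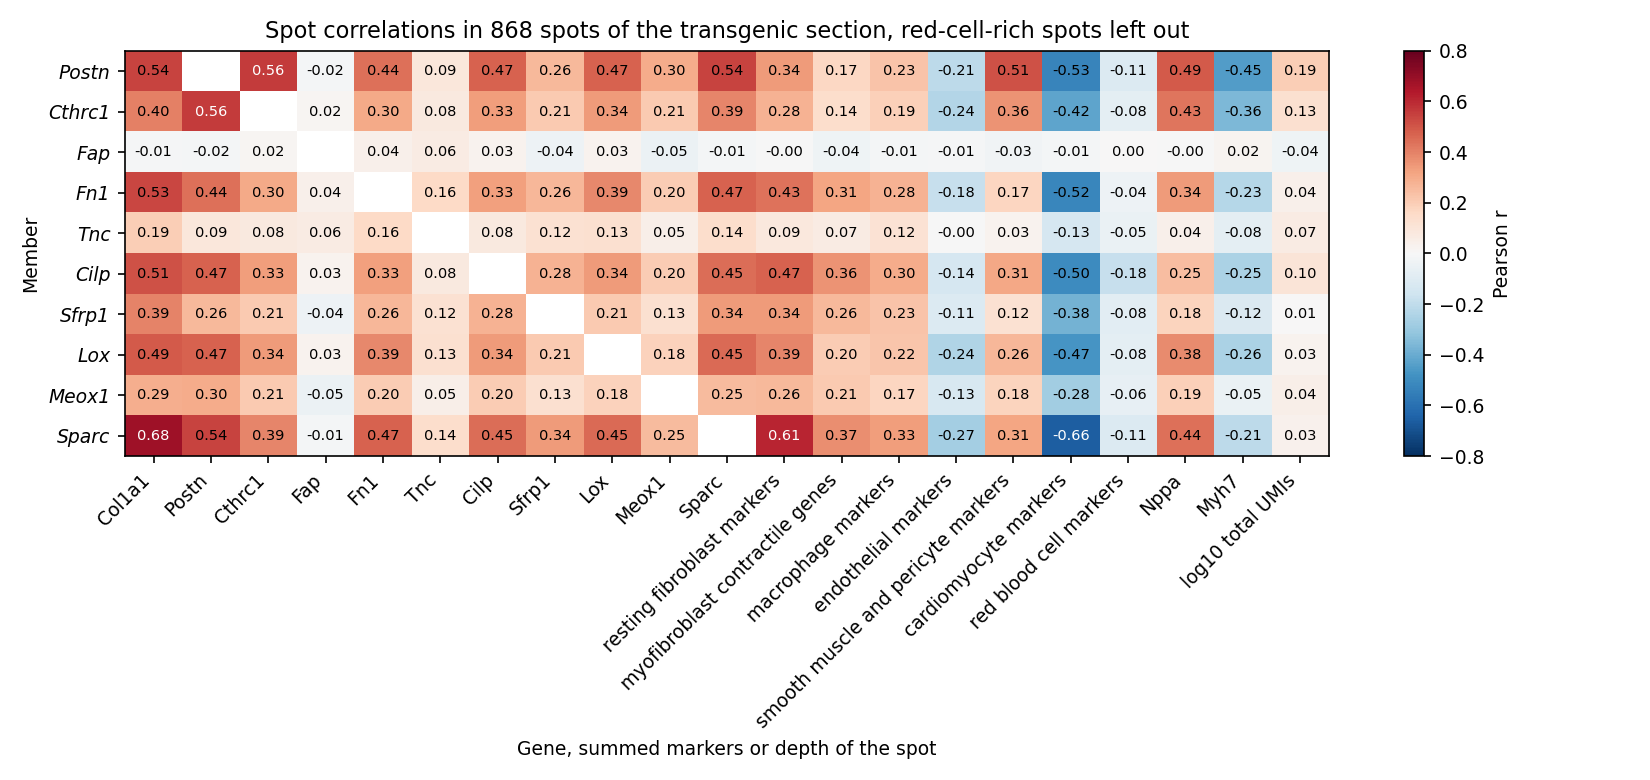
Pearson r over 868 transgenic spots between the 10 genes (rows) and Col1a1, each other, summed markers of other cell types, Nppa, Myh7 and the depth of the spot (columns), with spots over 10% red blood cell marker UMIs left out. The Fap row is near 0 throughout, and the column of cardiomyocyte markers is negative for the other 9 genes. Atrial, mesothelial and valve and cartilage-like markers are not drawn.

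Among the 10 genes, the closest pair was Postn and Cthrc1 at r = 0.56, followed by Postn with Sparc at 0.54. Over the 921 spots these values were also 0.56 and 0.54. Fn1 and Sparc stood at 0.47, as did Postn with Cilp and Postn with Lox. Among the 8 genes with over 400 transgenic UMIs, Sfrp1 and Meox1 were the loosest pair, at 0.13. The highest r of Fap with any of the others was 0.06, with Tnc.

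Resting fibroblast markers, summed over Pdgfra, Tcf21, Dpt, Gsn, Dcn, Lum, Scara5, Pi16, Mgp and Smoc2, gave r = 0.61 with Sparc, 0.47 with Cilp, 0.43 with Fn1, 0.34 with Postn and 0.28 with Cthrc1. Over the 921 spots the value of Sparc was 0.80 and that of Postn 0.41. That list took 0.186% of control and 0.392% of transgenic UMIs. Mgp alone gave 6380 of its 26710 control UMIs and 24272 of its 50810 transgenic UMIs. The median log2 ratio of its genes was 0.74, against 1.08 for its sum. No correlation without Mgp was read, so these values depend in large part on 1 matrix gene. Smooth muscle and pericyte markers gave 0.51 with Postn and 0.36 with Cthrc1, and over the 921 spots 0.44 and 0.25. That list includes Des, also a cardiomyocyte gene, which had its highest log2 ratio, 1.52. The summed list had a log2 ratio of 1.16 between the sections, while its median gene had 0.03. No correlation without Des was read, so these values cannot be assigned to smooth muscle or pericytes. Endothelial markers gave −0.21 with Postn, −0.24 with Cthrc1 and −0.27 with Sparc, and were closest to 0 for Fap and Tnc. Over the 921 spots the sign turned for Postn (0.10) and Sparc (0.47), and Cthrc1 stood at −0.02. Macrophage markers gave 0.33 with Sparc, 0.30 with Cilp and 0.23 with Postn, and over the 921 spots 0.55, 0.34 and 0.32. Valve and cartilage-like markers gave 0.56 with Sparc, 0.45 with Cilp, 0.39 with Fn1, 0.36 with Cthrc1 and 0.35 with Postn. For Cthrc1 and Postn this was above the value with resting fibroblast markers, and for Sparc, Cilp and Fn1 below it. That list, led by Comp, had a summed log2 ratio of 4.25 and a median of 1.59. No correlation without Comp was read.

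The cardiomyocyte stress genes Nppa and Myh7 separated. Nppa encodes atrial natriuretic peptide, and Myh7 the slow myosin heavy chain that the adult mouse ventricle normally keeps low. Over the 868 spots Nppa gave r = 0.49 with Postn, 0.44 with Sparc and 0.43 with Cthrc1, while Myh7 gave −0.45 with Postn, −0.36 with Cthrc1 and −0.21 with Sparc. With the spots rich in red blood cell markers, the values of Nppa were 0.54, 0.59 and 0.43, and those of Myh7 were −0.06 with Postn, −0.13 with Cthrc1 and 0.46 with Sparc. The negative relation to Myh7 was thus small for Postn, and turned for Sparc, in all 921 spots. The groups that follow leave those spots out. Ranked by Nppa, Postn went from 213 CPM in the lowest of 4 equal groups of spots to 921 CPM in the highest, 4.32-fold (3.97 to 4.71), and Cthrc1 from 7.65 to 90.0 CPM, 11.8-fold (7.70 to 18.9). Ranked by Myh7, Postn read 964, 360, 409 and 287 CPM, so that the group with the least Myh7 stood 3.36-fold (3.11 to 3.63) above the group with the most. Cthrc1 did likewise, with 85.0 CPM in the lowest group and 23.4 CPM in the highest. Meox1 differed little, at 130 and 113 CPM, and the interval of its ratio included 1. These are shares of each spot's UMIs, so a high share of one gene lowers that of the others.

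With the same spots ranked by cardiomyocyte markers, the richest of 4 groups still held Postn at 183 CPM, Lox at 39.1 CPM and Cthrc1 at 5.91 CPM in the transgenic section. The same group of the control read 15.5, 1.34 and 0.80 CPM. The group poorest in them reached 914 CPM for Postn and 89.9 CPM for Cthrc1, 5.01-fold (4.57 to 5.49) and 15.2-fold (9.46 to 26.0) above the richest. Cardiomyocyte markers themselves made up 9.55% of the UMIs of the control and 4.72% of those of the transgenic section. Among all genes 5.61% were lower by 2-fold or more, and among the 9 of these markers compared 5 were. Their part in the ratios of the 10 genes was not tested.

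Genes of the same families did not move as a block. Of 18 paralogs, all with at least 20 UMIs, 9 were higher by 2-fold or more and 2 lower by as much. Among all genes compared the shares were 13.7% and 5.61%. The median log2 ratio of the paralogs was 0.88. The Wnt-binding family split: Sfrp2 went from 161 to 2872 UMIs, 19.8-fold (16.9 to 23.4), and Frzb from 202 to 1573, 8.64-fold (7.46 to 10.1), while Sfrp5 fell by 1.53 on the log2 scale (−2.36 to −0.77), from 61 to 19 UMIs. Sfrp4 had only 10 and 15 UMIs, with a log2 ratio of 0.74 (−0.52 to 2.05).

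The lysyl oxidases moved one way. Loxl1 gave 922 and 3847 UMIs, Loxl2 367 and 1108, Loxl3 88 and 570, and Loxl4 16 and 70, with ratios of 4.63-fold, 3.35-fold, 7.19-fold and 4.86-fold. All of these were under the ratio of Lox.

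In other families the distance between member and relative varied. Tgfbi, the paralog of Postn, was 2.24-fold higher (1.91 to 2.65), and Cilp2, with 23 and 42 UMIs, 2.03-fold (1.19 to 3.53). Of the tenascins other than Tnc, Tnxb, abundant in connective tissue at rest, fell by 0.17 on the log2 scale, while Tnr and Tnn, at 18 UMIs or fewer in each section, had intervals that included 0. Meox2 fell by 0.34 (−0.53 to −0.14) where Meox1 rose. Among relatives of Sparc, Smoc1 was 4.04-fold higher, Sparcl1 1.36-fold and Smoc2, which is also in the list of resting fibroblast markers, 1.07-fold (1.01 to 1.13).

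**Figure D5:**
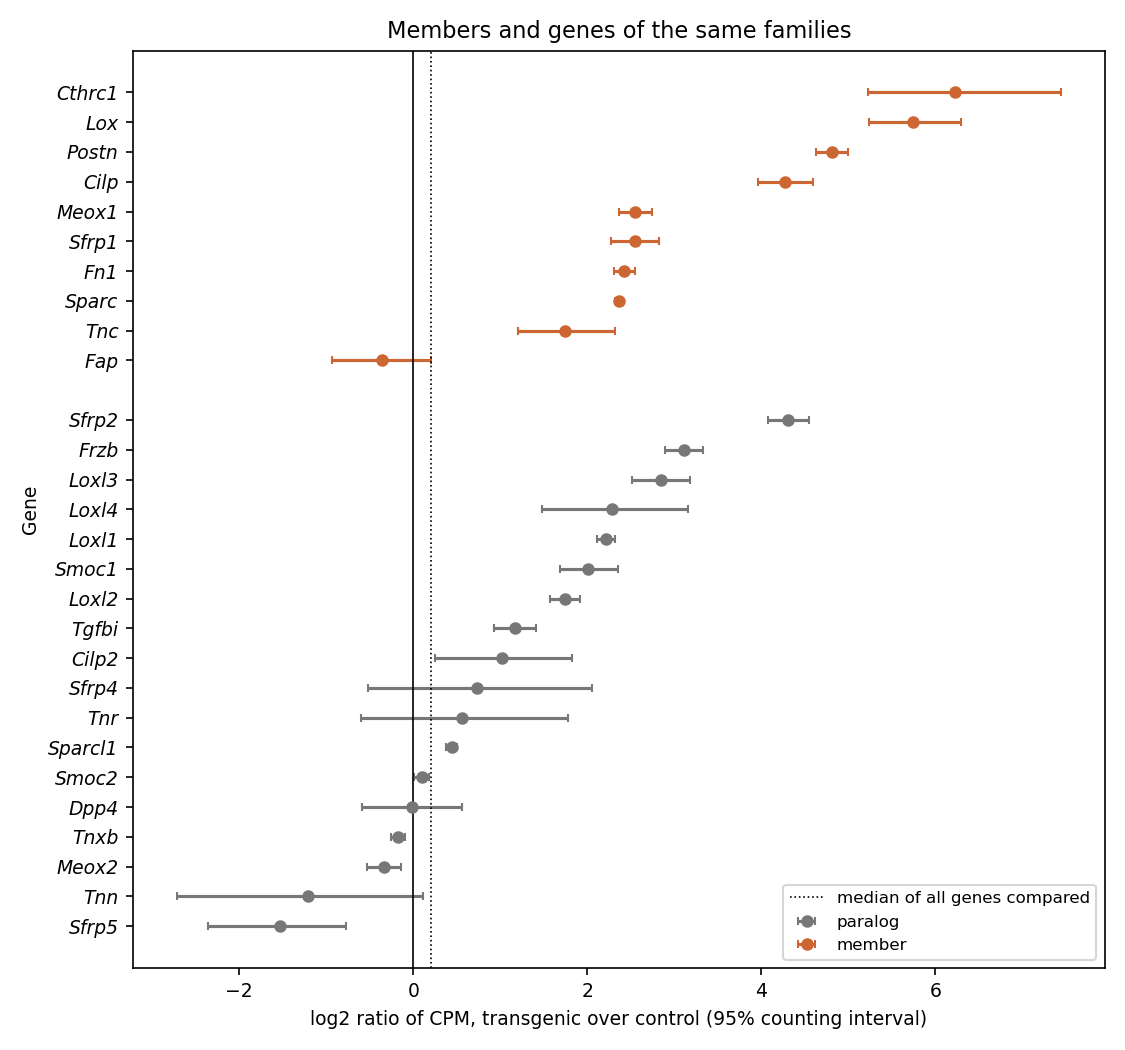
Log2 ratio of CPM, transgenic over control, with 95% counting intervals, for the 10 genes (orange) and 18 paralogs (grey); the dotted line is the median of all genes compared, 0.20. Cthrc1, at 6.22, lies farthest to the right and Sfrp5, at −1.53, farthest to the left.

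Partner genes were read from lists chosen with earlier results of these data known. Among all genes compared, 13.7% were higher and 5.61% lower by 2-fold or more. Of 16 genes for fibrillar collagens and the enzymes and chaperones that process them, 10 were higher by 2-fold or more and none was lower by as much, with a median log2 ratio of 1.05. Col5a2, a chain that helps set fibril width, was the highest at 3.09 (2.97 to 3.21), and Serpinh1, the collagen chaperone HSP47, the lowest at −0.37 (−0.43 to −0.31). Of 16 other matricellular and matrix genes 15 were higher by 2-fold or more, median 2.65, from Fbln1 at 0.87 to Ccn5 at 5.76. Ccn5 gave 132 and 6438 UMIs.

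Signalling genes around the members varied more, against the same 13.7% of all genes higher by 2-fold or more. Of 14 genes listed under TGF-β signalling, 10 were higher by 2-fold or more, with a median of 1.39. Ltbp2, named for the family of latent TGF-β binding proteins, stood highest at 6.92 (6.03 to 7.98) on 10 control and 1090 transgenic UMIs. Smad3, a transducer of that pathway, was lowest at −0.38 (−0.61 to −0.15). Of 12 Wnt genes 6 were higher by 2-fold or more, from Wnt5a at −0.61 to Dkk3 at 4.20, and of 12 matrix receptors 7, from Sdc4 at −0.09 to the collagen receptor subunit Itga11 at 2.30. Of 6 contractile genes of myofibroblasts 3 passed 2-fold, and Acta2, the smooth muscle actin often used to name these cells, was the lowest at 0.50 (0.44 to 0.55), with Cnn1 highest at 2.74.

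Markers of other cells were read in the same way. Among all genes compared, 13.7% were higher and 5.61% lower by 2-fold or more. The median log2 ratio was 0.07 for endothelial markers and 0.03 for smooth muscle and pericyte markers. Endothelial markers ran from Kdr at −0.92 to Cldn5 at 1.26, and smooth muscle and pericyte markers from Abcc9 at −1.58 to Des at 1.52. Macrophage markers ran from Lyz2 at −0.20 to Cd163 at 1.28. Of 10 resting fibroblast markers 5 were higher by 2-fold or more, from Scara5 at −0.88 to Mgp at 2.08. Of 10 macrophage markers 4 were, and their summed share of UMIs went from 0.0300% to 0.0591%. Of 10 endothelial markers 1 was, and their sum read 1928 CPM in the control, 1947 CPM in the transgenic heart. Of 10 smooth muscle and pericyte markers 1 was higher and 1 lower by 2-fold, of 5 atrial markers 2 were higher, and of 7 mesothelial markers compared 3 were. All 5 red blood cell markers compared were higher by 2-fold or more, with a median log2 ratio of 3.25, as were all 4 cardiomyocyte stress genes compared, with a median of 4.95. Of 7 valve and cartilage-like markers 5 were higher by as much, led by Comp with 63 and 3422 UMIs. No marker in the files was at 0 in either section, and the part of these cells in the results was not tested.

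Last, non-member genes were ranked by likeness to the 10 genes over transgenic spots, among 2332 genes with at least 1000 UMIs there. For the sum of the 10, over all 921 spots, the highest were Igfbp7 (r = 0.84), Col1a2 (0.81), Ccn2 (0.78), Col3a1 (0.78), Bgn (0.78), Gpx3 (0.77), Mgp (0.76), Eln (0.75), Hspb1 (0.74), Clu (0.74), Col1a1 (0.74), Ctsl (0.73), Vim (0.72), Col4a1 (0.72) and Col4a2 (0.71). Without the spots rich in red blood cell markers the order began with Col1a2 (0.79), Igfbp7 (0.78), Col1a1 (0.76) and Bgn (0.75), and Hspb1, Ctsl, Col4a1 and Col4a2 were no longer among the first 15. The sum is mostly Sparc, so this ranking is close to that of Sparc, whose own first 3 over the 921 spots were Igfbp7 (0.82), Ccn2 (0.77) and Col1a2 (0.75), and over the 868 spots Igfbp7 (0.72), Col1a2 (0.70) and Bgn (0.68).

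One at a time, and over the 868 spots, the genes had different neighbours. Postn was most like Col8a1 (0.61), Fstl1 (0.61) and Col5a2 (0.59). Cthrc1 was most like Thbs4 (0.52), Sprr1a (0.49) and Col8a1 (0.47), of which Sprr1a is a small proline-rich protein that stressed cardiomyocytes also make. Col1a2 led for Fn1 (0.57), Sfrp1 (0.43) and Lox (0.51), followed by Col3a1 and Eln for Fn1, Igfbp7 and Col3a1 for Sfrp1, and Col1a1 and Igfbp7 for Lox. Cilp was most like Igfbp7 (0.54), Col1a2 (0.53) and Mgp (0.51). Meox1 was most like Igfbp7 (0.33), Ccn2 (0.32) and Col3a1 (0.31), and Tnc most like Col1a1 (0.19), Col3a1 (0.19) and Col1a2 (0.19). No gene was close to Fap, whose first 3 were Sparcl1 (0.12), Nfia (0.10) and Map4k4 (0.10). Over all 921 spots Col1a2 led for Cilp too (0.53), and Col3a1 was among the first 3 of Fn1, Cilp, Sfrp1 and Lox. The first 3 of Postn, Cthrc1, Meox1, Tnc and Fap were the same genes over both sets of spots.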

How the data were processed

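Visium CytAssist libraries of 2 formalin-fixed heart sections were read, 1 per condition. The authors deposited raw UMI counts per probe-targeted gene and spot (Space Ranger 2.0.0 per the file headers; bcl2fastq, GRCm39 and mm39 per the labels' processing notes) and, per gene, Moran's I, a score used as deposited; its p-values were not used. The probe set is not given in the sources used here. All spots the authors called tissue were kept; 1 transgenic spot had no UMI. The sections share 725 barcodes, which are positions of the array. Counts were summed per section and divided by all UMIs (CPM); genes with at least 20 UMIs over both sections were compared. Ratios have exact conditional binomial intervals, levels exact Poisson intervals and shares of spots exact Clopper-Pearson intervals, all for counting error; PCR duplicates are removed by the UMI. A count of 0 was set to 3 UMIs, which is 0.209 (control) or 0.232 CPM (transgenic). The methods' Wilcoxon test takes spots as replicates and was left out. Spot correlations used log2(1 + UMIs per 10000) in spots with at least 1000 UMIs.

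The 10 genes and all lists were chosen with earlier results of these data known. Named were the 10 genes, Col1a1, Top2b, every paralog, the 15 genes most like the sum and the 3 most like each gene. The highest and lowest gene were named for lists of partner, signalling and contractile genes. They were also named for resting fibroblast, macrophage, endothelial and smooth muscle and pericyte markers, but not for every other list. Comp, Des, Pdgfra, Nppa, Myh7 and list members were named besides as references, and Actc1 and Hba-a1 of the lists were not analysed here. Alternatives were TMM (edgeR 4.0.16) and DESeq2 1.42.0 size factors, totals without abundant genes, subsets of spots, thinning, other filters and other forms of correlation. Leaving out spots with over 10% red blood cell marker UMIs, and the grouping of spots by Nppa, Myh7 and cardiomyocyte markers, were chosen after seeing the data. The same holds for taking red blood cell markers out of the spot totals. Scripts used Python 3.11.15, scipy 1.17.1, pandas 2.3.3 and R 4.3.3 and were tested on simulated counts.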

Additional observations from a re-analysis of the deposited data

How the results depend on the processing

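The number of the 10 genes higher in the transgenic section was 8 or 9 under every alternative run, being 8 of 8 where genes under 200 UMIs over both sections were left out (Fap and Tnc), and no ratio with an interval apart from 0 changed direction. The log2 ratio of the summed genes, 2.71, was 2.55 with TMM, 2.56 with DESeq2 size factors, 2.62 without the 50 most abundant genes in the totals, 2.76 away from the edge, 2.35 in the 50% of spots richest in cardiomyocyte markers, 2.82 in the 50% poorest in red blood cell markers and 2.65 as a mean over spots; the scalings moved the median of all genes from 0.20 to 0.05 (TMM and DESeq2) and 0.12 (without the 50 genes). The median log2 ratio of the genes was 3.41 over the 8 with at least 200 UMIs over both sections. Cthrc1, Lox, Cilp and Sfrp1 passed that filter only through their transgenic UMIs. It left out Fap and the gene with the lowest ratio of those that rose. The higher median and the 8 of 8 therefore follow from the filter and are no check of the ratios. The median r with Col1a1, 0.46, was 0.52 away from the edge, 0.34 after thinning and 0.71 for sums over a spot and its neighbours, and 0.45 without the spots rich in red blood cell markers. It was 0.42 with red blood cell markers taken out of the spot totals. The median share of spots with a UMI went from 7.68% to 5.51% in the control and from 63.7% to 51.7% in the transgenic section after thinning. Where no subset of spots or counts sets it, the cause of a shift was not tested. The log2 ratio of Cthrc1 ranged from 4.61 to 6.86, that of Tnc from 0.62 to 1.89 and that of Fap from −0.63 to −0.05. No paired analysis was possible because each condition has 1 section. Small counts limit Cthrc1, Lox, Tnc and Fap in the control section.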

Other observations

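In spots with at most 10% red blood cell marker UMIs the log2 ratio was 4.83 for Postn, 6.25 for Cthrc1, 5.75 for Lox and −0.33 for Fap. In the 8 control spots over that share, which together held 8946 UMIs, none of the 10 genes and no Col1a1 was counted. In the 54 transgenic ones, with 295321 UMIs, Fap was the one gene of the 10 with no UMI. Over the whole sections the 10 genes together stood at 473 CPM in the control, and Fap at 3.63 CPM in the transgenic section. Few UMIs are due at such depth, and whether these counts of 0 differ from that was not tested.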
